A study of Rattus norvegicus with 6 samples.

Results

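The genes that bring iron into the cell, store it, release it and sense it were followed in heart RNA of 6 adult male Wistar rats, an outbred laboratory strain. They were chosen by name as Tfrc, Slc11a2, Slc39a14, Fth1, Ftl1, Slc40a1, Hmox1, Ireb2 and Aco1, and these 9 symbols were found among 17487 symbols in the deposited count table, each on a single row. Per the labels, the doxorubicin group of 3 rats was given the anthracycline doxorubicin hydrochloride into a tail vein at 3.75 mg/kg once a week over 4 weeks, and the control group of 3 rats was given the saline vehicle by the same route and schedule. Each library came from the heart of 1 rat, as polyadenylated RNA, and the region of the heart and the time after the last dose were not given in the sources used here. The libraries held 2219685 to 3508282 counts, and all 9 genes passed the filter on low counts, with 39 (Ireb2) to 11688 (Fth1) counts in a library. Summed cardiomyocyte markers were 140465 to 162843 CPM (a scale explained below) in controls and 114902 to 130276 CPM in doxorubicin libraries, with 2 of 11 estimates above zero. Their log2 fold changes were uneven, from -1.62 (Ryr2) to 0.19 (Mybpc3), with -0.73 for Myh6, -0.59 for Mb and -0.02 for Myl2. Summed liver cell markers were 32.6 to 62.0 CPM over all 6.

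Iron circulates bound to transferrin, which the transferrin receptor carries into endosomes, where the iron is reduced and passed to the cytosol by a divalent metal transporter. Iron that is not used at once is held in the hollow shell of ferritin, built of heavy and light chains, and ferroportin is the known route of iron out of the cell. When iron is scarce, the iron regulatory proteins bind stem-loops in messenger RNAs, which stabilises the transferrin receptor message and blocks translation of the ferritin messages, so a transcript level shows only part of this control. Doxorubicin binds iron, and iron handling in heart muscle has long been studied in relation to the injury the drug causes.

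None of the 9 iron genes differed between the groups past the threshold, which was a Benjamini-Hochberg adjusted p of 0.05 over all 9205 tested symbols in edgeR's quasi-likelihood test. Over all tested symbols 5 passed it, which is 0.0543%. The nearest was Fth1, the ferritin heavy chain gene, with an unadjusted p of 0.0416, making 1 of the 9 genes (11.1%) under 0.05 against 8.10% of all tested symbols. In each of the 9 genes the values of the groups overlapped, while 13.4% of all tested symbols had groups that did not overlap. Of the 9 estimates 5 were above and 4 below zero, with a median log2 fold change of 0.01 against 0.02 over all tested symbols. DESeq2 and limma voom also called 0 of the 9. Levels below are counts scaled to a common library total (CPM), adjusted by the trimmed mean of M-values (TMM).

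**Figure D1:**
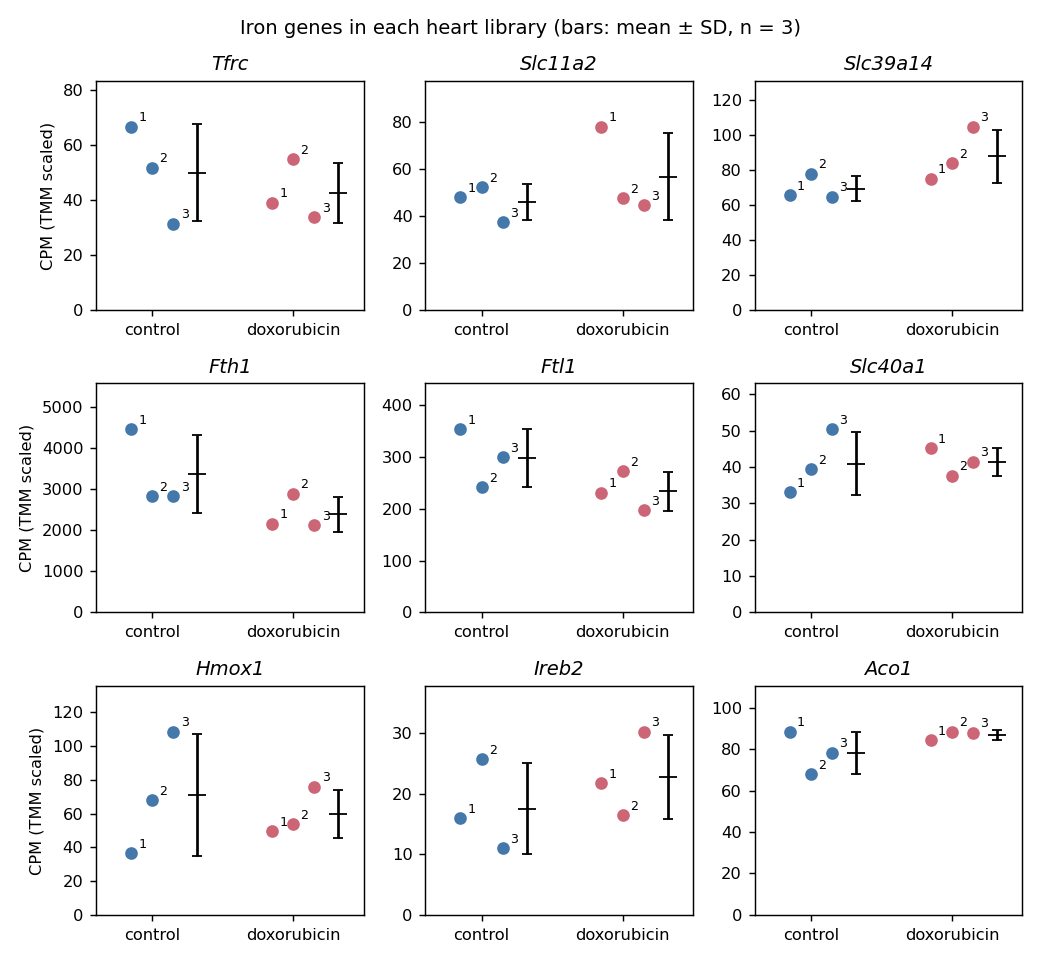
Level of each iron gene in CPM (vertical axes, from 0) in control and doxorubicin hearts; points are libraries with their replicate number and bars give the mean ± SD (n = 3). The groups overlap in every panel, and control 1 is the highest point for Fth1 (4449 CPM), Ftl1 (353 CPM) and Tfrc (66.6 CPM).

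Tfrc encodes the transferrin receptor, the main entry of transferrin-bound iron, and its gene is a textbook target of the hypoxia-inducible factors. The promoter is shown because it holds ACGTG, a short core that these factors recognise and the only form of it that was searched. These are the 60 bases before the start site of the RefSeq entry, at chr11:81690319-81690378 on the minus strand of the assembly GRCr8, with this core and TGACGT, part of the cyclic AMP response element, in capitals.
Tfrc: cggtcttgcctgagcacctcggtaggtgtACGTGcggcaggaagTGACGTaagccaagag
ACGTG begins 31 and TGACGT 16 bases before the start, and they do not overlap. ACGTG on either strand was present in 16.6% of the 33469 promoters of the table over the same 250 bases before the start, and TGACGT in 6.95%. Promoter entries were matched for 5 of the 9 genes (Tfrc, Slc11a2, Slc40a1, Ireb2 and Aco1), and in the other four of these neither motif occurred. The antioxidant response element TGACNNNGC, found in 10.1% of promoters, occurred in none of the 5 within that window. Fth1, Ftl1, Hmox1 and Slc39a14 had no promoter entry and were not searched for any motif. A match is a description of the letters only.

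Among the uptake genes, Tfrc stood at 66.6, 51.8 and 31.4 CPM in controls 1, 2 and 3 and at 39.0, 54.7 and 33.8 CPM in doxorubicin libraries 1, 2 and 3. The highest and the lowest of the 6 values were both controls, so the doxorubicin hearts lay inside the control range. The log2 fold change was -0.22 (SE 0.28, edgeR adjusted p 0.875), with a 95% confidence interval of 0.568 to 1.29 for the fold. Its sign rested on control 1: without that library the log2 fold change was 0.05, and without control 3 it was -0.48. Transcripts of the hypoxia-inducible factor subunits, Hif1a (log2 fold change 0.07, SE 0.18) and Epas1 (-0.13, SE 0.23), also had groups that overlapped.

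Tfrc is also abundant in young red cells and in dividing cells, so markers of blood and of dividing cells were read beside it. Summed blood markers, mostly hemoglobin chains, were 7489 CPM in control 1 and 755 to 2803 CPM in the other five libraries, and 0 of the 8 tested were higher in doxorubicin. Of these 8, Slc4a1 and Bpgm did not peak in control 1. Unscaled, Slc4a1 had 103 counts there and 184 in control 3, and Bpgm had 186 there and 251 in doxorubicin 3. Summed cell cycle markers, of which 4 of 12 were tested and 0 were higher, were 36.9 to 54.9 CPM in controls and 14.1 to 33.9 CPM in doxorubicin libraries. Control 1 was thus highest for Tfrc and for the blood sum, whereas control 3 was lowest for Tfrc and highest for the cell cycle sum. Their part in the Tfrc level was not tested. In bulk tissue, fewer cells of a type and less RNA per cell cannot be told apart.

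Slc11a2 encodes the divalent metal transporter that moves ferrous iron out of the endosome. It was 48.0, 52.3 and 37.4 CPM in controls 1, 2 and 3, and 78.1, 47.6 and 44.7 CPM in doxorubicin libraries 1, 2 and 3. A single heart, doxorubicin 1, stood above the rest, and the other two doxorubicin values lay between those of the controls. The log2 fold change of 0.31 (SE 0.24, edgeR adjusted p 0.777) dropped to 0.02 without doxorubicin library 1.

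Slc39a14, whose product ZIP14 imports iron not bound to transferrin, was 65.9, 77.9 and 64.8 CPM in controls and 75.2, 84.0 and 104.9 CPM in doxorubicin libraries. Only doxorubicin 1 and control 2 crossed, and the means were 69.5 ± 7.29 and 88.0 ± 15.3 CPM (SD, n = 3). The estimate was a log2 fold change of 0.34 (SE 0.19, edgeR unadjusted p 0.0977 and adjusted p 0.683). It was above zero in all 22 other settings, from 0.21 without doxorubicin library 3 to 0.45 without doxorubicin library 1, and the unadjusted p was at least 0.0501 in each of them.

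Of the iron genes, ferritin heavy chain had the largest estimate. Fth1, which carries the site that oxidises iron as it enters the shell, was 4449, 2817 and 2830 CPM in controls 1, 2 and 3 and 2155, 2882 and 2118 CPM in doxorubicin libraries 1, 2 and 3. Control 1 lay far above the other hearts, and doxorubicin 2 was at the level of controls 2 and 3, leaving doxorubicin 1 and 3 below every control. This gave a log2 fold change of -0.50 (SE 0.22), a fold of 0.709 with a 95% confidence interval of 0.510 to 0.985, and the edgeR adjusted p was 0.589. Without control 1 it was -0.24, at an unadjusted p of 0.168 in edgeR's test.

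Ftl1 encodes the ferritin light chain, which helps form the iron core. Its level was 353, 241 and 299 CPM in controls and 231, 272 and 197 CPM in doxorubicin libraries. As with Fth1, control 1 was the highest and doxorubicin 3 the lowest of the 6 hearts, and doxorubicin 2 was the highest of its group. The log2 fold change was -0.35 (SE 0.20, edgeR adjusted p 0.687) and became -0.21 without control 1 and -0.23 without doxorubicin library 3. In every setting run both ferritin estimates stayed below zero, and Fth1 had an unadjusted p under 0.05 in 15 of 22 settings and an adjusted one in 0. Most of these settings refit the same 6 libraries. The unadjusted p of Fth1 in edgeR's test was 0.168 without control 1, 0.120 without doxorubicin 1 and 0.137 without doxorubicin 3.

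The Ftl1 count was 7.93%, 8.55% and 10.6% of the Fth1 count in controls 1, 2 and 3, and 10.7%, 9.44% and 9.31% in doxorubicin libraries 1, 2 and 3. This ratio within a library does not depend on scaling, and its groups overlapped (2-sided exact permutation p = 0.4, where 0.1 is the smallest that 3 against 3 can give). Because the messages differ in length, it is no ratio of molecules. Both genes have many near-identical copies: the GRCr8 gene list names 6 numbered copies of Fth1, 5 of them pseudogenes, and 21 of Ftl1, 15 of them pseudogenes. No such copy had a row of its own in the count table, and how reads shared with them were counted is not given in the sources used here, so the level of both is uncertain.

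The ferritin genes are also the shortest of the 9, spanning 2.29 kb (Fth1) and 1.85 kb (Ftl1) in GRCr8 against 21.8 kb or more for the others. Over the 1034 tested symbols with a span under 5 kb, the median log2 fold change was -0.10 and 66.0% were below zero, and over the 2419 with a span over 50 kb the median was 0.10. Short genes stood 0.26 (log2) above their 6-library mean in control 1, where Fth1 stood 0.68 and Ftl1 0.43 above theirs. After a correction for span, chosen after the results were seen, the log2 fold change was -0.36 for Fth1 (edgeR unadjusted p 0.0489, adjusted p 0.560) and -0.21 for Ftl1.

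**Figure D2:**
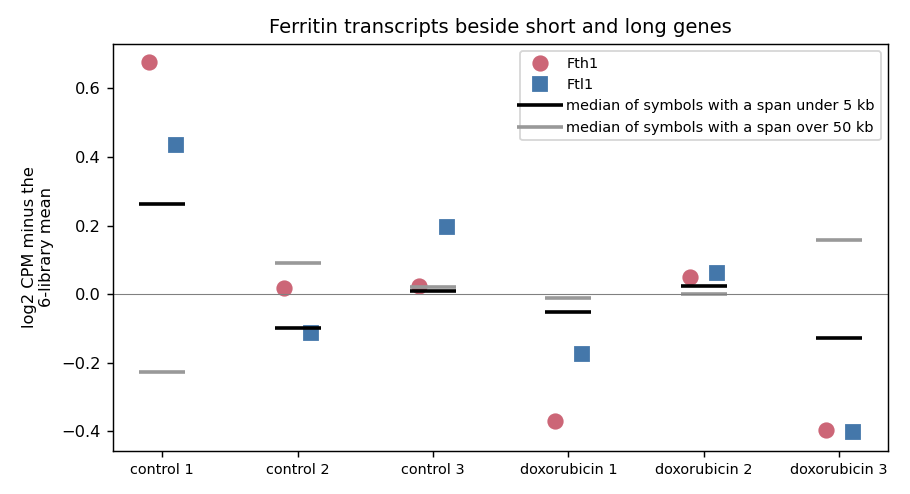
Log2 CPM of Fth1 and Ftl1 minus the mean over the 6 libraries (vertical axis) in each library; dashes mark the median of the same quantity over tested symbols with a gene span under 5 kb (black) and over 50 kb (grey). In control 1 the ferritin genes (0.68 and 0.43) and short genes (0.26) are high and long genes (-0.23) are low.

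Slc40a1 encodes ferroportin, the iron exporter. It was 33.1, 39.4 and 50.4 CPM in controls 1, 2 and 3 and 45.1, 37.6 and 41.4 CPM in doxorubicin libraries 1, 2 and 3, so all 3 doxorubicin values lay within the control range. The means were nearly equal, 41.0 ± 8.74 and 41.4 ± 3.74 CPM (SD, n = 3), and the 95% confidence interval of the fold ran from 0.729 to 1.39. The log2 fold change of 0.01 changed sign in 6 of 22 settings, within -0.14 to 0.19. The 3 libraries highest for Tfrc (control 1, doxorubicin 2 and control 2) were the 3 lowest for Slc40a1, an order seen after the values and not tested.

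Hmox1 encodes the inducible heme oxygenase, which opens the heme ring and frees its iron, and it is a common readout of oxidative stress. Its level was 36.5, 67.8 and 108.4 CPM in controls and 49.6, 53.8 and 75.8 CPM in doxorubicin libraries. Of the 9 genes it varied most among controls, with a coefficient of variation of 50.8%, and the controls held both the highest and the lowest value. The log2 fold change was -0.25 (SE 0.32, edgeR adjusted p 0.875), or a fold of 0.838 with a 95% confidence interval of 0.523 to 1.34. It was 0.20 without control 3 and -0.56 without control 1, the latter at an unadjusted p of 0.0412 and an adjusted p of 0.852 in edgeR.

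Macrophages recycle heme iron and can be rich in both Slc40a1 and Hmox1. Summed macrophage markers were 327 to 338 CPM in controls and 384, 629 and 429 CPM in doxorubicin libraries 1, 2 and 3, and 14 of the 15 tested markers had estimates above zero. The part of macrophages in the level of either gene was not tested. Of the 19 macrophage markers in the table Marco, Vsig4 and Ptprc were listed at 0 throughout.

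The iron regulatory proteins are the cell's iron sensors. Aco1 encodes the one that doubles as cytosolic aconitase when it carries an iron-sulfur cluster, and its level was 88.3, 67.8 and 78.1 CPM in controls and 84.2, 88.3 and 87.8 CPM in doxorubicin libraries. The doxorubicin hearts were close to each other, with a coefficient of variation of 2.63% against 13.2% in controls, and lay near the upper end of the control range. Its estimate was 0.15 on the log2 scale (SE 0.18, edgeR adjusted p 0.866), 0.25 without control 1 and 0.07 without control 2. Scaled by library size only, Aco1 had doxorubicin values all above the controls, and it was the only one of the 9 genes to do so. That scaling gave all tested symbols a median log2 fold change of 0.10 in place of 0.02. The share of all tested symbols without overlap was not counted under it.

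Ireb2 encodes the regulatory protein that is destroyed when iron is plentiful. It was the thinnest of the 9, with 39 to 103 counts per library, at 16.0, 25.7 and 11.0 CPM in controls and 21.8, 16.5 and 30.3 CPM in doxorubicin libraries. The groups were interleaved, and the log2 fold change of 0.40 (SE 0.33, edgeR adjusted p 0.790) had a 95% confidence interval of 0.809 to 2.16 for the fold. It was 0.14 without control 3, 0.16 without doxorubicin library 3 and 0.78 without control 2. The Ireb2 count as a share of the Aco1 count was 23.4% ± 12.7 in controls and 26.3% ± 7.90 in doxorubicin libraries (SD, n = 3; 2-sided exact permutation p = 0.7).

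**Figure D3:**
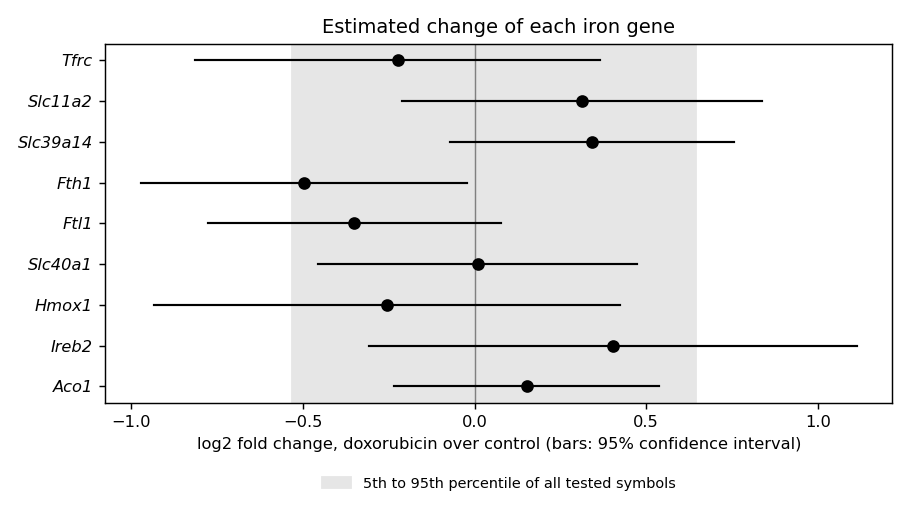
Log2 fold change of doxorubicin over control (horizontal axis) for each iron gene, with its 95% confidence interval from edgeR; the grey band spans the 5th to 95th percentile of all tested symbols (-0.53 to 0.64). All 9 points lie inside the band, and only the interval of Fth1 leaves out zero, by 0.02.

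**Figure D4:**
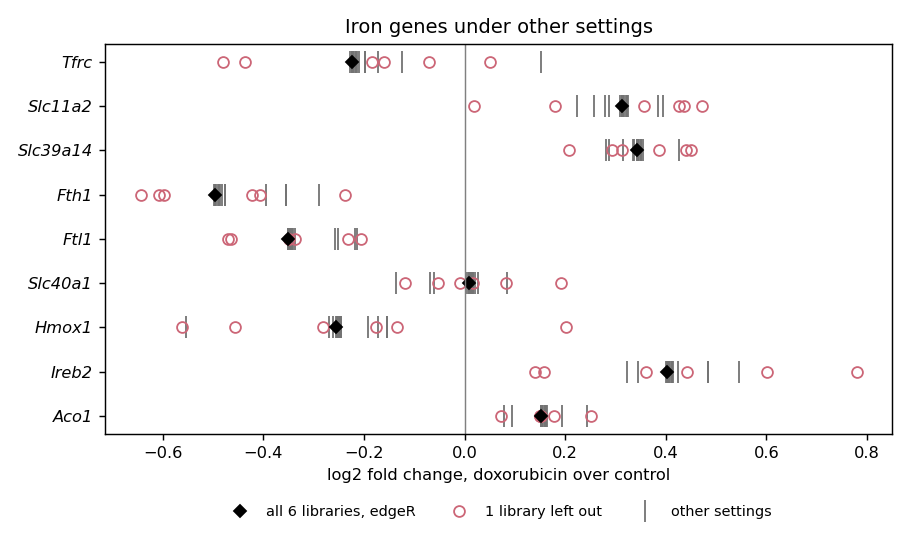
Log2 fold change of each iron gene (horizontal axis) with all libraries (diamond), with 1 library left out (circles) and under the other settings (ticks). Tfrc, Slc40a1 and Hmox1 have values on both sides of zero, while the ferritin genes stay below it and Slc11a2, Slc39a14, Ireb2 and Aco1 above it.

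The wider iron network was read from a list of 115 other genes of iron and heme entry, storage, export, hepcidin signalling, iron sensing, iron-sulfur clusters and heme. Of these, 108 were in the table and 91 were tested. None passed the adjusted threshold in edgeR, with a smallest adjusted p of 0.301; DESeq2 and limma voom also called 0. At an unadjusted p under 0.05 there were 11 (12.1%) against 8.10% of all tested symbols, and in 13 (14.3%) the groups did not overlap, against 13.4%. Of the 91, 4 were higher and 7 lower under that p, beside 368 (4.00%) and 378 (4.11%) of all 9205 tested symbols. Without overlap, 3 of the 91 were higher and 10 lower, beside 588 (6.39%) and 650 (7.06%) of all tested symbols. The median log2 fold change was -0.01, with 45 estimates above zero and 46 below.

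**Figure D5:**
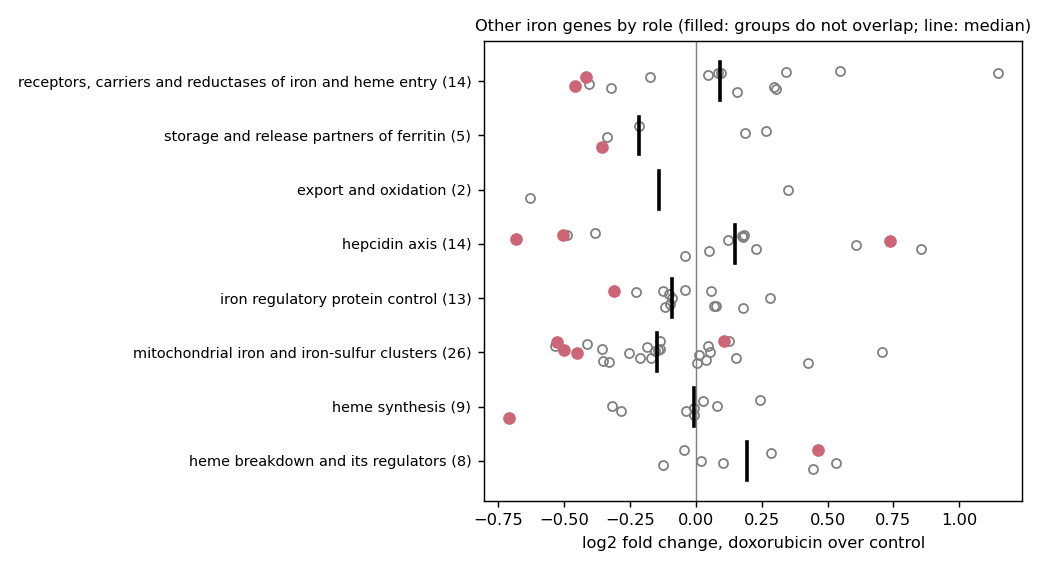
Log2 fold change of doxorubicin over control (horizontal axis) for 91 other iron genes, in rows by role with the number tested; filled points are the 13 genes whose groups do not overlap and black lines are medians. Medians lie between -0.21 and 0.19, and no gene passed the adjusted threshold.

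Hepcidin, the hormone that makes cells degrade ferroportin, is induced through bone morphogenetic protein receptors and Smad proteins. Of 14 tested genes of this axis 9 were above zero and 5 below (64.3% above, against 52.1% of all tested symbols), and 4 (28.6%) had an unadjusted p under 0.05, against 8.10%. The adjusted threshold was passed by 0. Because the lists were chosen with earlier results of these data known, this share, like those of the other lists, is no test of an excess. Smad1, which carries the receptor signal to the nucleus, was 46.1, 42.5 and 42.7 CPM in controls and 25.6, 27.4 and 28.8 CPM in doxorubicin libraries. Its groups were well apart, with a log2 fold change of -0.68 (SE 0.20, edgeR adjusted p 0.301), and its unadjusted p stayed under 0.05 in all 22 other settings. Smad7, an inhibitor of the same signal, was 40.0, 41.6 and 35.4 CPM in controls and 90.9, 47.3 and 56.4 CPM in doxorubicin libraries, a log2 fold change of 0.74 (SE 0.25, edgeR adjusted p 0.400) that was 0.42 without doxorubicin library 1. Hjv, which encodes the co-receptor hemojuvelin and is expressed in heart muscle, was 351, 320 and 330 CPM against 162, 272 and 270 CPM, a log2 fold change of -0.51 (SE 0.21, edgeR adjusted p 0.548) that was -0.29 without the same library. The receptor gene Bmpr2, named after its values were seen, had a log2 fold change of 0.86 (SE 0.33, edgeR adjusted p 0.499) with groups that overlapped. The groups also overlapped for Smad4 (0.17, SE 0.19), Smad5 (0.23, SE 0.34), Smad6 (0.05, SE 0.25) and Id1 (0.18, SE 0.21), likewise named afterwards. The activity of this signal was not tested. Hepcidin itself, Hamp, had 0 to 56 counts per library and the groups overlapped.

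Mitochondria use iron to build heme and iron-sulfur clusters. Of 26 tested genes for mitochondrial iron and clusters, 16 were below zero and 10 above (38.5% above, against 52.1% of all tested symbols), with a median log2 fold change of -0.15. An unadjusted p under 0.05 was seen for 3 (11.5%), near the 8.10% of all tested symbols. Bola3, a late-acting cluster assembly factor, was 178, 173 and 129 CPM in controls and 98.6, 125 and 108 CPM after doxorubicin (log2 fold change -0.53, SE 0.19, edgeR adjusted p 0.451). The doxorubicin values lay under those of all controls, by the least between doxorubicin 2 and control 3. Ndufab1, the mitochondrial acyl carrier protein that also takes part in cluster assembly, had a log2 fold change of -0.50 (SE 0.21, edgeR adjusted p 0.558), which was -0.25 without control 1, and its groups overlapped when scaled by library size only. Nfs1, the enzyme that supplies the sulfur, was apart in the other direction by a small amount, 238 ± 10.2 CPM after doxorubicin against 222 ± 3.27 CPM (SD, n = 3). Its log2 fold change was 0.10 (SE 0.17, edgeR adjusted p 0.894).

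In the heme pathway, Alad, an early enzyme of heme synthesis, was 133, 74.0 and 83.8 CPM in controls and 65.6, 62.8 and 49.1 CPM in doxorubicin libraries. Every doxorubicin value was under every control (log2 fold change -0.71, SE 0.23, edgeR adjusted p 0.383, and -0.41 without control 1), and the other eight tested heme synthesis genes had unadjusted p values over 0.05. Slc48a1, a heme transporter of endosomes, was also under every control, 68.9 ± 3.40 against 94.9 ± 23.8 CPM (SD, n = 3; log2 fold change -0.46, SE 0.20, edgeR adjusted p 0.585, and -0.24 without control 1). Nfe2l2 encodes Nrf2, the factor that induces Hmox1 and both ferritin genes under oxidative stress. It was 51.8, 74.4 and 86.1 CPM in controls and 98.9, 86.2 and 108 CPM in doxorubicin libraries, a log2 fold change of 0.46 (SE 0.21, edgeR adjusted p 0.594) that was 0.29 without control 1. The estimates of Hmox1, Fth1 and Ftl1 were below zero with all libraries, and that of Hmox1 was 0.20 without control 3. The Nfe2l2 transcript level is not a measure of Nrf2 activity, which was not tested.

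Among partners of iron entry, storage and sensing, Steap3, the endosomal reductase that works with the transferrin receptor, was 33.1, 31.4 and 35.4 CPM in controls and 25.9, 27.4 and 21.7 CPM in doxorubicin libraries (log2 fold change -0.42, SE 0.22, edgeR adjusted p 0.659). Glrx3 (-0.36, SE 0.19), a glutaredoxin that carries iron-sulfur clusters, and Ciao3 (-0.31, SE 0.19), part of the machinery that delivers clusters to cytosolic proteins, likewise had all doxorubicin values under all controls. Without control 1 their log2 fold changes were -0.18 and -0.15. Cd163, the macrophage receptor for hemoglobin bound to haptoglobin, was named after its values were seen: at 8 to 52 counts per library its log2 fold change was 1.15 (SE 0.44, edgeR adjusted p 0.492), the groups overlapped, and it is itself one of the macrophage markers above. Control 1 held the highest value for Alad, Slc48a1, Bola3, Ndufab1, Glrx3 and Ciao3, as it did for the ferritin genes.

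Of the 17 other iron genes that were in the table and not tested, 5 were listed at 0 in every library, among them Ftmt, Hephl1, Heph and Pgrmc1. Heph and Pgrmc1 lie on the X chromosome, where nearly every symbol was listed at 0, so nothing about their expression can be read from this. Ncoa4, the receptor that sends ferritin to the lysosome, had 0 to 1 counts and Hmox2, the constitutive heme oxygenase, 0 to 2. At these counts no difference was detectable. Whether such counts show low expression in the heart or the way reads were counted was not tested.

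For the 3 iron genes with the smallest unadjusted p, the tested symbols with the most similar course over the 6 libraries were listed by Pearson's r of log2 CPM, out of 7312 candidates. Fth1 was most like Med16 (r = 0.994), Ndufb2 (r = 0.991) and Sharpin (r = 0.990), and Ftl1 most like Scand1 (r = 0.996), Anxa6 (r = 0.994) and Tagln2 (r = 0.990). Slc39a14 was most like Eif2ak1 (r = 0.987), Trak2 (r = 0.974) and Magi1 (r = 0.974). These are the highest of many values over few points that share libraries and depth, and they describe these libraries only. In Med16, Ndufb2, Sharpin, Scand1, Anxa6 and Tagln2 control 1 was the highest library, as in Fth1 and Ftl1.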

How the data were processed

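The authors deposited raw read counts per gene symbol for 6 libraries in a single table. FastQC, Trimmomatic, STAR, HTSeq and the rat build mRatBN7.2 are named in the submitters' processing notes; the annotation, the use of strand and the handling of shared reads are not given in the sources used here. Rows of a symbol were summed. Doxorubicin was compared with control by the quasi-likelihood F test of edgeR 4.0.16 in R 4.3.3, in a model of treatment alone, with TMM scaling, robust dispersion and filterByExpr (minimum count 10, minimum total 15), which left 9205 symbols. P-values were adjusted over all of them by the Benjamini-Hochberg method at 0.05. A standard error is the absolute log2 fold change over the square root of F, and confidence intervals are at 95%. Log2 CPM used a prior count of 2. The fit was tested on simulated data. DESeq2 1.42.0, limma 3.58.1 and scipy 1.17.1 were also used.

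The smallest detectable level was taken as 3 counts, or 0.855 to 1.35 CPM, which covers counting error only. The labels describe separate animals. Control 1 stood apart on the first principal component (-43.3, against -4.83 to 26.6 for the others). Named were the 9 genes; of the other iron genes, those called plus up to 15 with mean CPM of at least 5 and groups that do not overlap, by unadjusted p (13 met this; counts of other iron genes include some not reported here by name); and, for the 3 genes with the smallest p, the 3 symbols most alike by r among those with mean CPM of at least 10. Genes and lists were chosen with earlier results of these data known. Spans, chromosomes and promoters come from RefSeq on GRCr8, and 97.6% of tested symbols had a span. No coordinates of the files' own build were used.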

Additional observations from a re-analysis of the deposited data

How the results depend on the processing

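All planned settings were run, and the gene span correction, with and without the replicate block, was chosen after seeing the data. The iron genes past the adjusted threshold numbered 0 in each of 22 settings, as did the other iron genes. Of 198 refitted log2 fold changes of the 9 genes 189 kept their direction; the exceptions were Tfrc at 0.051 without control replicate 1 and 0.15 with voom quality weights, Hmox1 at 0.20 without control replicate 3, and Slc40a1 at -0.12 without control replicate 1, -0.0098 without control replicate 2, -0.053 without doxorubicin replicate 1, -0.14 with voom quality weights, -0.069 with the span correction and -0.062 with that correction and the block. All 286 refits of the 13 other named iron genes kept theirs. Leaving out each library moved Tfrc from -0.48 to 0.051, Slc40a1 from -0.12 to 0.19 and Hmox1 from -0.56 to 0.20. Causes were not tested.

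Symbols past the adjusted threshold numbered 5 in the reported fit, 0 with library size only (719 at an unadjusted p under 0.05), 61 with no filter, 1 at a mean CPM of at least 5, 1 with only symbols on 1 row, 1 with non-robust dispersion, 74 with DESeq2, 0 with limma voom (740 at an unadjusted p under 0.05), 14 with voom quality weights, 10 with the span correction and, leaving out each library, 0 to 35. With library size only, all symbols had a median of 0.10 on the log2 scale in place of 0.02. The iron genes at an unadjusted p under 0.05 numbered 1 in the reported fit, 0 with library size only and 0 with voom quality weights. Leaving out each library gave 0 to 3. The 3 were Fth1, Ftl1 and Ireb2, without control 2, where 876 of 9425 tested symbols were under that p. The other iron genes under it numbered 11, and 5 to 14 leaving out each library. All tested symbols under it numbered 746, and leaving out each library 531 (without control 1) to 895 (without doxorubicin 2). Iron genes whose groups did not overlap numbered 0, and 1 (Aco1) with library size only, where the share over all tested symbols was not counted.

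With the replicate number as a block 13 symbols passed, 12 with the span correction too, and 0 iron genes had an unadjusted p under 0.05 in either fit. Same-numbered libraries share only a number: their deviations from the group means correlated at 0.021, -0.185 and -0.056. The log2 ratio of Ftl1 to Fth1 differed by 0.13, from 0.045 to 0.25 leaving out each library, and that of Ireb2 to Aco1 by 0.26, from -0.038 (without control replicate 3) to 0.67.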

Other observations

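Of 492 protein-coding symbols that RefSeq places on the X chromosome in GRCr8, 490 (99.6%) were listed at 0 in all 6 libraries. On the 20 autosomes the share was 8.42% to 19.2% per chromosome, 14.2% of 14492 symbols together. The exceptions on X were Il13ra1, an interleukin receptor subunit gene, with 11 to 52 counts per library, and Rpl39, a ribosomal protein gene, with 1 count in doxorubicin library 3 and 0 elsewhere. None of the 9 iron genes lies on X. Among the other genes read here, Heph, which encodes the iron-oxidising partner of ferroportin, Pgrmc1, a heme-binding protein gene, the red cell heme synthesis gene Alas2 and the macrophage receptor gene Vsig4 do. A zero for these genes in the table is therefore not a measured absence in the heart.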
